A study of Drosophila melanogaster with 8 samples.

Results

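The genes described here are Chd3 and 7 others that act in chromatin remodelling, Chd1, Mi-2, kis, brm, Iswi, dom and osa, 8 of the 12071 genes that a probe set with a single gene symbol named on either of 2 Affymetrix array types. They were taken by gene symbol from the platform annotation, which gave 13 of 14010 probe sets on the older array type and 10 of 18952 on the newer one. Chd3 was chosen by its higher intensity with dexamethasone on the older arrays, so its older-type values are a description and carry no test, whereas its newer-type values come from arrays that the choice did not use. The platform annotation gave none of these probe sets a second gene symbol, and the mean log2 value of all 23 was at least 4, the minimum for testing, a value of 16 on the deposited scale.

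The RNA came from S2 cells, an embryo-derived Drosophila melanogaster line that resembles haemocytes. They carried CLKGR, in which the circadian activator CLK is joined to the ligand-binding part of a glucocorticoid receptor and so waits for hormone. The older type had 2 arrays labelled dexamethasone (DEX) and 2 labelled ethanol (EtOH). The newer type had 2 labelled DEX and 2 labelled V, a letter the labels do not explain. All 8 arrays also carry CHX in their labels, cycloheximide, which blocks translation, so that DEX was compared with its control in the absence of new protein. One label of the EtOH group says that the cells were stably transfected. The labels give no dose, time or clone, and the source label of the second newer-type DEX array carries the number 1, so whether the 2 arrays came from separate cultures is not settled.

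Chromatin remodellers of the Snf2 family use ATP to slide, evict or exchange nucleosomes. The CHD proteins Chd1, Chd3, Mi-2 and kis carry chromodomains beside the ATPase, brm is the ATPase of the SWI/SNF-type BAP and PBAP complexes, Iswi drives the NURF, ACF and CHRAC complexes, and dom belongs to the family that exchanges histone variants. The gene osa is no ATPase gene: its product is an ARID-domain subunit that defines the BAP form of the brm complex. Alleles of brm, kis and dom have been studied for their part in the circadian clock of the fly, where CLK drives transcription of its targets.

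The CLK targets moved in opposite directions on the array types, which bears on every newer-type value below. The brightest probe set of vri, a target that encodes a bZIP repressor, differed by 4.04 ± 0.26 on log2 (SE, limma adjusted p = 0.0056) between DEX and EtOH arrays of the older type. Its newer-type difference, DEX minus V, was -2.07 ± 0.16 (unadjusted p = 0.000754, limma adjusted p = 0.849). The same turn of sign was seen in cwo (2.91 ± 0.29 and -2.90 ± 0.66 on the older and newer type), Pdp1 (2.34 ± 0.17 and -2.14 ± 0.25) and tim (2.62 ± 0.41 and -2.53 ± 1.01), while Clk differed by -0.89 and 0.33. On the older type cwo and Pdp1 were called (limma adjusted p = 0.030 and 0.010), and tim and Clk were not (0.143 and 0.420). None of these genes was called on the newer type (limma adjusted p = 0.865 each). The newer V arrays of tim lay far apart, at 5.01 and 7.58. Whether the DEX and V labels of the newer type are exchanged was not tested. If they are, each newer-type difference below keeps its size and p and changes its sign, so that Chd3 would be at 0.31 and kis at 0.27 there. Newer-type groups are therefore named by their labels. Of the haemocyte markers 10 of 10 on the older type and 9 of 10 on the newer were above the minimum, among them Hml, Pxn, Col4a1 and srp. So were 5 of 5 germline markers on each type, so passing the minimum does not tell cell types apart. Older-type mean log2 values of crq (4.71), NimC1 (4.52) and Ppn (5.10) were near that of the germline gene vas (4.78). None of the haemocyte markers was called on either type, nor was any marker of neurons, muscle, fat body or germline. Of all probe sets 0.263% on the older type and 0% on the newer were called. At an unadjusted p under 0.05 stood Col4a1 (-0.66) and srp (0.53) on the older type and the germline gene osk (-0.23) on the newer, against 5.85% and 3.53% of all probe sets. Of 5 neuron markers 3 were tested on the older type and 4 on the newer, with median differences of -0.0038 and -0.28. The lowest of these, elav at -0.48 on the newer type, rested on the first V array.

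**Figure D1:**
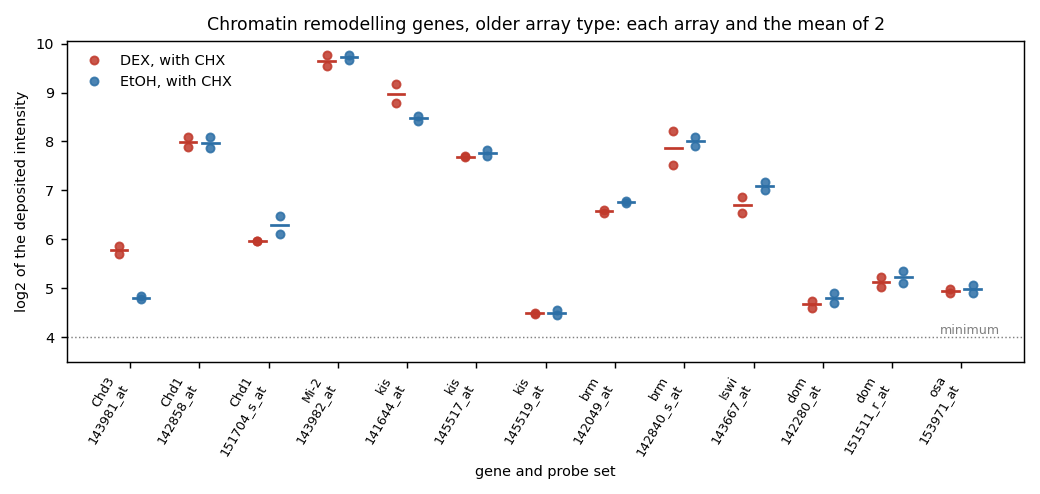
Each point is the log2 of the deposited intensity on 1 older-type array for a probe set of the 8 genes, with DEX left of EtOH and a bar at the mean of 2 arrays. Levels of different probe sets cannot be compared. The 2 DEX arrays of Chd3 lie at 5.70 and 5.87, above its EtOH arrays at 4.77 and 4.85.

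Chd3, which encodes a CHD protein close to Mi-2 reported to act without partner subunits, had higher values with DEX than with EtOH on the older arrays, and lower values with DEX than with V on the newer. On the older type its deposited intensity was 52.0 and 58.6 on the DEX arrays, against 27.3 and 28.8 on the EtOH arrays. The groups did not overlap on these arrays, which chose the gene. Of all older-type probe sets tested, 13% lay higher with DEX without overlap. On log2 the values were 5.79 ± 0.12 with DEX and 4.81 ± 0.05 with EtOH (SD, n = 2 each). The difference was 0.98 ± 0.11 (SE), or 1.97-fold as deposited. If the deposited scale was reached with base e, the difference is 0.68, or 1.60-fold. The EtOH values stood close to the medians of all probe sets on the same arrays, 27.0 and 28.8. The DEX mean stood near the older-type mean log2 of the neuron marker elav, 5.80. Most other markers of neurons, muscle, fat body and germline lay lower. How near either group is to unspecific binding was not tested.

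The newer-type intensity of Chd3 was 43.0 and 37.5 on the arrays labelled DEX, against 44.0 and 56.2 on those labelled V. Both DEX-labelled arrays lay below both V-labelled ones, the nearer pair by a small margin. The log2 values were 5.33 ± 0.14 with DEX and 5.64 ± 0.25 with V (SD, n = 2 each). The difference of -0.31 ± 0.17 (SE) did not pass (limma adjusted p = 0.865, 95% interval -0.84 to 0.22). Of all newer-type probe sets 17.6% differed by at least as much in size. The difference was -0.49 without the first V array and -0.13 without the second. Taken between array types, the effect of Chd3 was -1.29 ± 0.22 (SE) on the newer minus the older type. It is given without a test because the older values chose the gene. Newer-type mean log2 values of the muscle marker Tm2 (5.32) and the neuron marker elav (5.73) were near those of Chd3. Most other markers of neurons, muscle, fat body and germline lay lower there. How near the Chd3 values are to unspecific binding was not tested.

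Over all older-type probe sets tested, limma called 27 of 10250 (0.263%), of which 22 were higher (0.215%) and 5 lower (0.0488%) with DEX. Chd3, picked for its rise on these arrays, is given no call there. Its older-type difference was between 0.89 and 1.06 over the other scalings and with each array left out in turn. That range describes the arrays that chose the gene and is no support for the rise.

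The protein-coding genes next to Chd3 in the RefSeq gene order were read in part. CG14095, which follows it, differed by -0.21 on the older type (limma adjusted p = 1.00) and by -0.39 on the newer (0.865). CG33062, which precedes it, had a value on the newer type alone and differed by -0.48 (limma adjusted p = 0.865). The genes one step further out, ms(3)76Ba and CG14096, differed by 0.0046 and -0.0019 on the older type and by -0.0085 and -0.19 on the newer. ms(3)76Ba on the newer type and CG14096 on the older lay below the minimum and were not tested.

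Of the 12 older-type probe sets beside that of Chd3, 1 had both DEX arrays above both EtOH arrays, and it reads kis. Its product is a trithorax-group protein that promotes early steps of transcription elongation. The probe set, 141644_at, read 440 and 577 on the DEX arrays, against 366 and 344 on the EtOH arrays. The DEX arrays differed more from each other than the EtOH arrays did, with log2 values of 8.98 ± 0.27 with DEX and 8.47 ± 0.06 with EtOH (SD, n = 2 each). The difference of 0.51 ± 0.21 (SE) did not pass (unadjusted p = 0.0493, limma adjusted p = 0.849, 95% interval 0.0023 to 1.01). The other kis probe sets of the older type were flat by comparison. Probe set 145517_at read 209 and 204 with DEX, against 226 and 209 with EtOH (difference -0.07 ± 0.16). Probe set 145519_at read 22.3 and 22.6 with DEX, against 21.9 and 23.5 with EtOH (difference -0.02 ± 0.07). It lay below the array medians of 27.0 to 28.8, and how near this is to unspecific binding was not tested. The 3 probe sets of kis thus disagreed, and the mean over them differed by 0.14.

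A single newer-type probe set read kis, 1636513_a_at, whose suffix marks probes that can read several transcripts. It stood at 1268 and 1215 on the arrays labelled DEX, against 1524 and 1480 on those labelled V. The groups did not overlap and arrays of a group lay close together. The difference of -0.27 ± 0.09 (SE, limma adjusted p = 0.865, 95% interval -0.56 to 0.0070) did not pass. Between types the effect of kis, by its brightest probe sets, was -0.78 ± 0.24 (SE) on the newer minus the older type. It did not pass either (unadjusted p = 0.0141, limma adjusted p = 0.756), and it was -0.41 with the mean of all kis probe sets and -0.23 with the newer-type sign turned.

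Chd1, a remodeller tied to nucleosome assembly and to deposition of the histone variant H3.3, was level on one of its older-type probe sets. That set, 142858_at, read 271 and 238 with DEX, against 234 and 271 with EtOH, a difference of 0.01 ± 0.18 (SE). The other set, 151704_s_at, whose suffix marks probes shared between transcripts or genes, read 62.6 and 62.7 with DEX, against 89.3 and 68.6 with EtOH. There the DEX arrays were lower without overlap, by -0.32 ± 0.16 (limma adjusted p = 0.990), and the EtOH arrays were 0.27 apart as an SD. Newer-type values of Chd1 were 505 and 545 with DEX, against 568 and 414 with V, which overlapped, with a difference of 0.11 ± 0.21 (limma adjusted p = 0.911).

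Mi-2, the ATPase of the NuRD deacetylase complex and of dMec, overlapped between groups on both array types. The older arrays read 867 and 747 with DEX, against 812 and 873 with EtOH (difference -0.07 ± 0.19, 95% interval -0.53 to 0.40). Its newer-type values were 1931 and 2937 with DEX, against 2334 and 1945 with V (difference 0.16 ± 0.27, 95% interval -0.68 to 1.00). The spread between the DEX-labelled arrays of the newer type, an SD of 0.43, was larger than the difference. For Mi-2 the intervals leave room for changes in either direction, wider on the newer type.

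**Figure D2:**
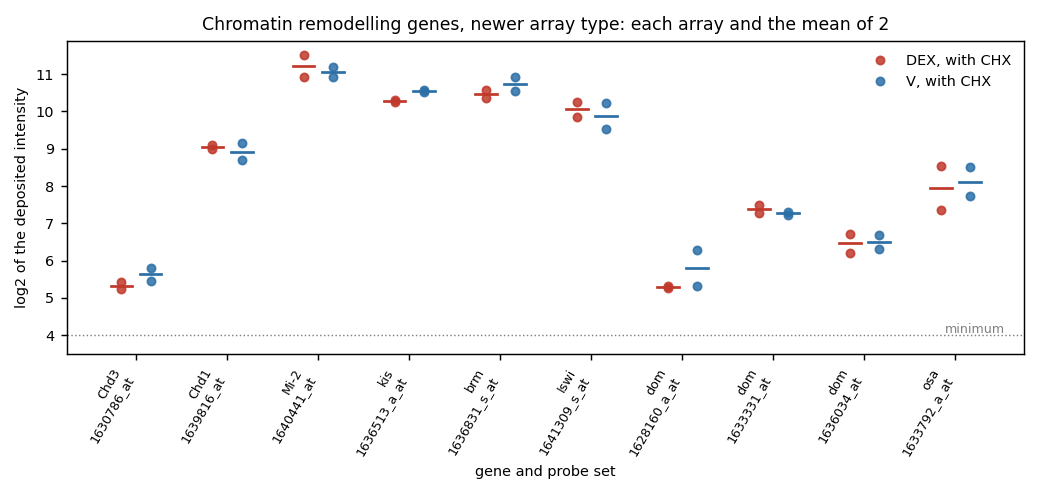
Each point is the log2 of the deposited intensity on 1 newer-type array for a probe set of the 8 genes, with arrays labelled DEX left of those labelled V and a bar at the mean of 2 arrays. Levels of different probe sets cannot be compared. Chd3 is at 5.43 and 5.23 with DEX and at 5.46 and 5.81 with V, and the 2 arrays of each osa group lie far apart.

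The SWI/SNF genes brm and osa did not pass on either type. The probe set 142049_at of brm read 97.3 and 93.0 with DEX, against 111 and 107 with EtOH. These groups did not overlap, with a small difference of -0.19 ± 0.14 (SE, limma adjusted p = 1.00). The second older-type set of brm, 142840_s_at, read 296 and 183 with DEX, against 240 and 275 with EtOH, so that the EtOH arrays lay between the DEX arrays (difference -0.14 ± 0.26). The newer-type set of brm, 1636831_s_at with shared probes, read 1539 and 1320 with DEX, against 1947 and 1502 with V. The groups overlapped there, with a difference of -0.26 ± 0.19 (limma adjusted p = 0.865). By the labels the differences of all 3 brm probe sets were below 0, and none passed. With the newer-type sign turned, the newer set would be at 0.26 and the 3 would disagree. Of all probe sets 41.1% on the older type and 47.6% on the newer were above 0.

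Arrays of a group lay close together for osa on the older type and far apart on the newer. The older probe set 153971_at read 29.9 and 31.6 with DEX, against 30.0 and 33.4 with EtOH (difference -0.04 ± 0.10, 95% interval -0.28 to 0.20). These values stood near the array medians of 27.0 to 28.8. The newer set 1633792_a_at read 369 and 164 with DEX, against 365 and 212 with V (difference -0.17 ± 0.56, 95% interval -1.90 to 1.55). The first array of each newer-type group was high and the second low. The SDs of 0.82 with DEX and 0.56 with V on log2 were larger than the difference between the groups.

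Iswi, the ATPase that spaces nucleosomes in several complexes, was lower with DEX on the older type without passing. It read 117 and 93.1 with DEX, against 129 and 144 with EtOH, and the groups did not overlap. The difference was -0.39 ± 0.17 (SE, unadjusted p = 0.0675, limma adjusted p = 0.918, 95% interval -0.81 to 0.04), the lowest of the 13 older-type probe sets. Newer arrays read Iswi (1641309_s_at, shared probes) at 929 and 1221 with DEX, against 1196 and 735 with V. Here the groups overlapped and the difference was 0.18 ± 0.33 (limma adjusted p = 0.910).

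The 5 probe sets of dom, whose product is tied to exchange of the histone variant H2Av, gave small differences apart from one. The older-type set 142280_at read 24.3 and 26.8 with DEX, against 30.0 and 26.1 with EtOH (difference -0.13 ± 0.10). The set 151511_r_at read 32.6 and 37.4 with DEX, against 34.5 and 41.1 with EtOH (difference -0.11 ± 0.13). Both overlapped between groups, and 142280_at stood near the array medians of 27.0 to 28.8. Of the newer-type sets, 1633331_at read 179 and 156 with DEX, against 148 and 159 with V (difference 0.12 ± 0.13). The set 1636034_at read 73.9 and 105 with DEX, against 79.5 and 104 with V (difference -0.04 ± 0.27), and these groups overlapped as well. The fifth, 1628160_a_at, read 38.3 and 39.8 with DEX, against 78.0 and 39.8 with V. Its difference of -0.51 ± 0.39 (limma adjusted p = 0.865) rested on the first V array, the other 3 arrays being almost level.

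**Figure D3:**
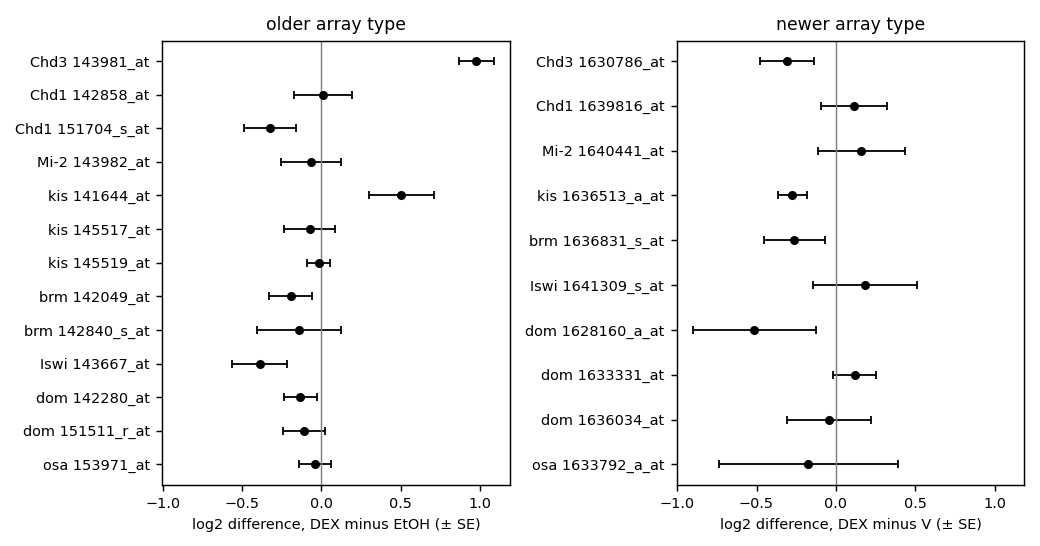
Points are log2 differences of each probe set of the 8 genes, DEX minus EtOH on the older type (left panel) and DEX minus V on the newer type (right panel), with bars of 1 SE from limma. Chd3 is at 0.98 on the older type, where the 12 other probe sets run from -0.39 to 0.51, and at -0.31 on the newer type, where the 9 others run from -0.51 to 0.18.

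Over the 7 genes beside Chd3, limma called 0 of 12 older-type probe sets, with 1 at an unadjusted p under 0.05 (that of kis) and a smallest adjusted p of 0.849. The background on this type was 0.263% called and 5.85% at an unadjusted p under 0.05. Among newer-type probe sets 0 of 9 were called and 0 lay at an unadjusted p under 0.05, against 0% and 3.53% of all probe sets tested. Without overlap between groups, 1 of these 12 older-type probe sets lay higher with DEX (kis) and 3 lower (Chd1, brm and Iswi), where 13% and 13.6% of all probe sets did. Of the 9 newer-type probe sets 0 lay higher and 2 lower without overlap (kis and dom), where 13% and 23.9% did. The median difference over the probe sets of the 7 genes was -0.09 on the older type, against -0.01 over all tested, and -0.04 on the newer type, against -0.0045. SEs ran from 0.07 to 0.26 on the older type and from 0.09 to 0.56 on the newer, so small changes were harder to see on the newer arrays.

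By their brightest probe sets, 4 of the 7 genes beside Chd3 (Mi-2, kis, Iswi and dom) had opposite signs on the array types, where 43.8% of all 8404 genes with both did. With the newer-type sign turned, the other 3 (Chd1, brm and osa) did, where 56.2% of all genes did. For dom the newer-type sign also turned with the mean of its probe sets. The test of the difference between types called 25 of 8404 genes (0.297%), and none of the 7, whose adjusted p ran from 0.756 to 1.00. For Iswi that difference was 0.57 ± 0.39 (SE, limma adjusted p = 1.00, 95% interval -0.35 to 1.49), and 0.20 with the newer-type sign turned. With that sign turned the test called 0 genes (0%), and 5.05% had an unadjusted p under 0.05.

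**Figure D4:**
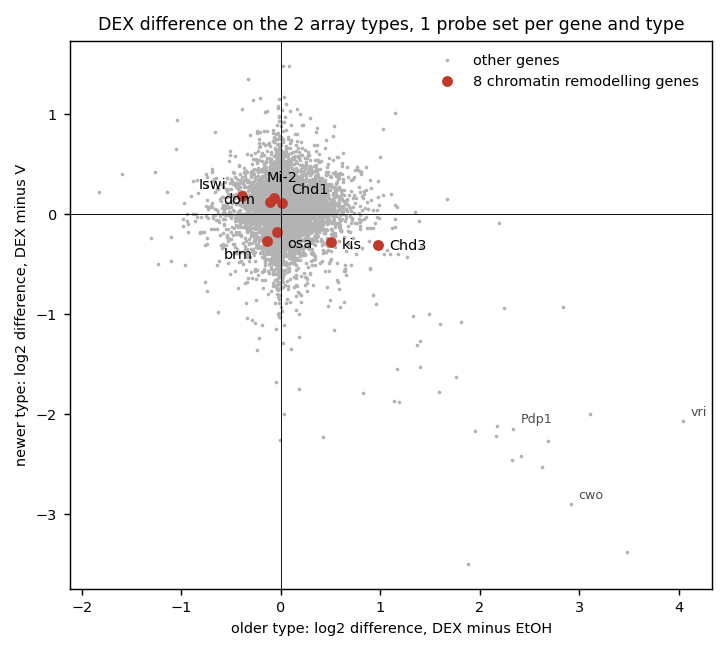
Each grey point is a gene read on both array types, with its DEX minus EtOH log2 difference on the older type (x axis) and its DEX minus V log2 difference on the newer type (y axis), by its brightest probe set. The 8 chromatin remodelling genes are red. Chd3 at 0.98 and -0.31 and kis at 0.51 and -0.27 lie to the lower right, as do the labelled CLK targets vri, cwo and Pdp1, which lie farther out. The older-type value chose Chd3, and kis did not pass on either type. The mean over the older-type probe sets of kis was 0.14. Of all genes 43.8% had opposite signs, in either order.

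The genes whose pattern over the 8 arrays was most like that of Chd3, after each type was centred on its mean, were Hsc70-4, Gadd45, jim, vri and Cyt-b5-r. Pearson's r with Chd3 was 0.98 for Hsc70-4, which encodes a constitutive Hsp70 chaperone, 0.97 for the stress gene Gadd45 and 0.97 for the zinc finger gene jim. It was 0.96 for vri and 0.95 for Cyt-b5-r, among 6754 genes ranked. This likeness is of shape and not of size: the older and newer differences were 4.04 and -2.07 for vri, 2.24 and -0.94 for Gadd45, 0.55 and -0.11 for Hsc70-4, 0.37 and -0.19 for jim, and 0.04 and -0.02 for Cyt-b5-r. Of the other chromatin remodelling genes, each by its brightest probe set, kis stood nearest, at r = 0.88 and rank 39. Iswi stood farthest, at r = -0.77 and rank 6615. The older-type set used for kis was 141644_at, and its other 2 older-type sets were flat by comparison (-0.07 and -0.02). The remaining 5 genes had r between -0.42 and 0.0032. These values describe 8 arrays that share their tables, with 2 arrays a group, and a gene chosen for its older-type difference.

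Further subunits of the same complexes formed a list of 32 genes, of which 21 were read on each type. On the older type 20 were tested, 0 were called and 14 were above 0, with a median of 0.16 against -0.01 over all tested, where 41.1% of all probe sets were above 0. All 21 were tested on the newer type, where 0 were called and 14 were above 0, with a median of 0.10 against -0.0045 and a background of 47.6% above 0. Most tested members had a mean log2 above 6. With that minimum, the median over all probe sets was 0.05 on the older type and 0.06 on the newer. Without overlap between groups, 8 of the 20 lay higher and 2 lower on the older type, where 13% and 13.6% of all probe sets did. On the newer type 4 of the 21 lay higher and 2 lower, where 13% and 23.9% did. The list as a set was not tested. The older-type members with the smallest p-values were DMAP1, a subunit of the Tip60 complex, at -0.55 ± 0.19 (SE, limma adjusted p = 0.725), MRG15, a chromodomain protein of that complex, at 0.61 ± 0.26 (0.877), and simj, the p66 subunit of NuRD, at -0.94 ± 0.46 (0.957). The arrays of simj were far apart, with SDs of 0.45 with DEX and 0.98 with EtOH. The newer-type members were Caf1-55, a histone-binding protein shared by several complexes, at 0.18 ± 0.10, E(bx), the large subunit of NURF, at -0.31 ± 0.18, and mor, a core subunit of the brm complexes, at 0.12 ± 0.08 (limma adjusted p = 0.865 each).

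The other Snf2-family ATPase genes were read in full, 7 of 7 on each type, with 0 called. On the older type their median was -0.01, the same as over all tested to this precision. Hel89B differed there by -0.30 ± 0.38, XNP, the fly counterpart of ATRX, by -0.05 ± 0.17 and Etl1 by 0.02 ± 0.08 (limma adjusted p = 1.00 each). Their newer-type median was -0.13, against -0.0045 over all tested. There XNP stood at 0.26 ± 0.10, Etl1 at -0.18 ± 0.13 and lds at -0.25 ± 0.20 (limma adjusted p = 0.865 each). Without overlap between groups, 1 of the 7 (XNP) lay higher and 2 lower, where 13% and 23.9% of all probe sets did. On the older type 0 of the 7 lay higher and 0 lower, where 13% and 13.6% did.

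Histone chaperones, which hand histones to and from DNA, numbered 10, of which 8 were tested on the older type and 9 on the newer, with 0 called. Their medians were 0.07 and 0.08, against -0.01 and -0.0045 over all tested. Of these genes 5 of 8 and 7 of 9 were above 0, where 41.1% and 47.6% of all probe sets were. With a minimum of 6, which most of these genes passed, the medians over all probe sets were 0.05 and 0.06. Without overlap between groups, 3 of the 8 lay higher and 0 lower on the older type, where 13% and 13.6% of all probe sets did. On the newer type 2 of the 9 lay higher and 0 lower, where 13% and 23.9% did. The list as a set was not tested. On the older type Nph, of the nucleophosmin family, differed by 0.40 ± 0.18 (limma adjusted p = 0.918), Caf1-180, the large subunit of CAF-1, by 0.33 ± 0.17 (0.996) and Ssrp, of the FACT complex, by -0.27 ± 0.24 (1.00). On the newer type Hira, a chaperone of H3.3, differed by 0.74 ± 0.51, with an SD of 0.89 between the V arrays, asf1 by 0.11 ± 0.10 and dre4, the other FACT subunit, by 0.13 ± 0.13 (limma adjusted p = 0.865 each).

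**Figure D5:**
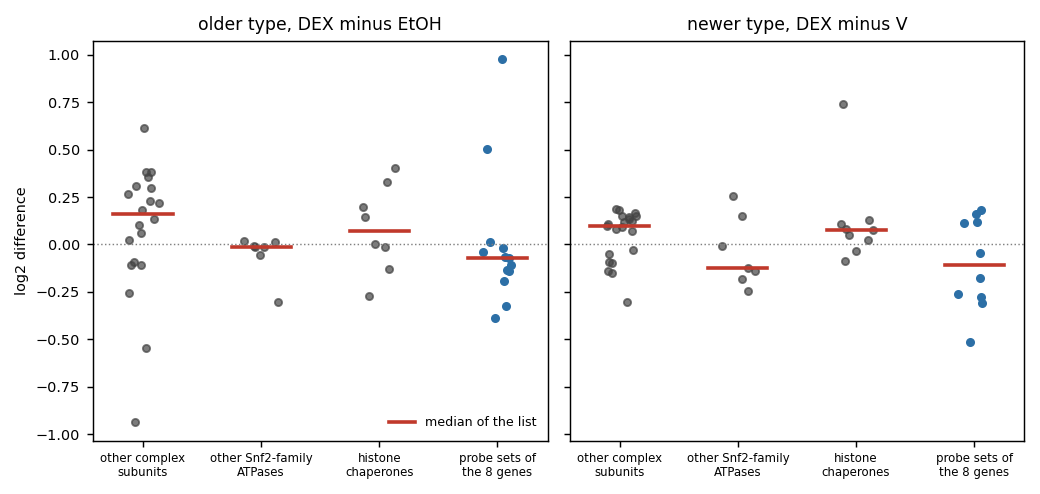
Points are log2 differences, DEX minus EtOH on the older type (left) and DEX minus V on the newer type (right), of the tested members of 3 gene lists (black, 1 probe set per gene) and of the probe sets of the 8 chromatin remodelling genes (blue), with red bars at the medians. The median of the other complex subunits is 0.16 in the left panel and 0.10 in the right, and Chd3 is the highest blue point of the older type, at 0.98.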

How the data were processed

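Per the submitters' processing notes, the deposited intensity values were made with GCRMA (version not given in the sources used here), which corrects background, normalises by quantiles and summarises probes. The values had left the log scale of GCRMA by a base that is not given: if it is e, each log2 difference is to be multiplied by 0.693, which leaves p-values as they are. The highest deposited values were 1869520 to 2128800 on the older arrays and 4820610 to 5129390 on the newer. Which base was used was not tested. Log2 was taken with no pseudocount, and control probe sets (44 older, 183 newer) were left out. limma 3.58.1 (R 4.3.3; lmFit and eBayes, intensity trend, two-sided) was run on each type separately, over probe sets with a mean log2 of at least 4, and called an adjusted p (Benjamini-Hochberg) of at most 0.05. An interaction fit over all 8 arrays used the brightest probe set per gene and type. Separate cultures behind the arrays of a group are not stated in the labels, and p-values then cover only array-to-array spread, possibly technical, and having 2 arrays a group limits the precision. Symbols were updated through RefSeq (Release 6 plus ISO1 MT), where 12394 of 12444 probe sets with 1 symbol on the older type and 13544 of 13647 on the newer matched; 327 and 402 had several symbols and 1239 and 4903 none. The members and lists were chosen with earlier results of these data known. Named genes were all probe sets of the 8 genes, up to 3 members per list and type with the smallest p, and the 5 genes most like Chd3; the neighbours of Chd3 were added after values were seen. No columns were identical. The fits were tested on simulated data. Of 50 simulated log2 changes of 1, limma called 47 on the older type, 14 on the newer and 25 between types. Many changes of that size would thus be missed on the newer type. Sequences were not used here.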

Additional observations from a re-analysis of the deposited data

How the results depend on the processing

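The older-type count of 27 called probe sets became 73 with no minimum, 13 with a minimum of 6, 8 with median centring, 0 with median centring over all probe sets (added after seeing the data), 4 with repeated quantile normalisation, 12 with no intensity trend and 14 genes with the spread of all 8 arrays. It was 0 without either EtOH array, 263 without DEX replicate 1 and 455 without DEX replicate 2; the cause was not tested. On the newer type limma called 0 in each fit of that type alone (439 at an unadjusted p under 0.05) and 14 genes with the spread of all 8 arrays. The 25 genes that differed between types became 12 with plain _at probe sets alone and 5 or 11 without EtOH replicate 1 or 2, 15 without older DEX replicate 2, 97 or 40 without V replicate 1 or 2, and 62 or 43 without newer DEX replicate 1 or 2.

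None of these settings turned the sign of Chd3 on the newer type, where its difference did not pass. With both DEX-labelled arrays below both V-labelled ones, leaving out any 1 array could not turn it. The older-type and between-type signs of Chd3 did not turn either, but they rest on the arrays that chose the gene. With single arrays left out, uncalled older-type differences ran from -0.096 to 0.12 for Chd1 142858_at, from -0.066 to 0.033 for kis 145519_at, from -0.17 to 0.042 for Mi-2, from -0.49 to 0.21 for brm 142840_s_at, from -0.24 to 0.017 for dom 151511_r_at and from -0.12 to 0.039 for osa. Newer-type differences ran from -0.30 to 0.21 for dom 1636034_at, from -0.14 to 0.46 for Mi-2, from -0.17 to 0.54 for Iswi, from -0.76 to 0.41 for osa and from -0.12 to 0.34 for Chd1. Differences between types ran from -0.47 to 0.23 for brm, from -0.13 to 0.33 for Chd1, from -0.076 to 0.53 for Mi-2 and from -0.72 to 0.45 for osa. Repeated quantile normalisation gave -0.076 for Chd1 and 0.0010 for kis 145519_at, which was 0.0078 with median centring over all probe sets. With the mean of all probe sets Chd1 was at -0.16 (older), dom at -0.15 (newer) and dom at -0.025 (between types). With the newer-type sign turned (added after seeing the data) 0 genes differed between types, and the difference was -0.12 for Chd1, -0.094 for Mi-2, 0.41 for brm, -0.0075 for dom and 0.22 for osa. These uncalled signs carry no direction. With the array number as a replicate block (added after seeing the data, the first EtOH and V arrays, which carry no number, taken as 1), limma called 34 older-type and 0 newer-type probe sets and 6 genes between types, and changed no call of the 7 genes beside Chd3 on either type or between types. Same-numbered arrays deviated from their group means with r = 0.26 (older) and -0.02 (newer), over 2 pairs a type. The minimum of 6 left Chd3 untested, so it has no value there.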
